A study of Mus musculus with 7 samples.

Results

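Matrix metalloproteinases (MMPs), ADAMTS enzymes, ADAMTS-like proteins and tissue inhibitors of metalloproteinases (TIMPs) were followed in the inguinal fat pad of mice, a white adipose depot under the skin of the groin. The members were all protein-coding genes of the deposited count table whose symbol is Mmp, Adamts, Adamtsl or Timp followed by a number. This gave 50 of 55487 genes: 22 MMPs, 19 ADAMTS enzymes, 5 ADAMTS-like proteins and 4 TIMPs. The imBAT group held 4 libraries from NOD/ShiLtJ mice that were injected with a brown adipocyte product, the part above 100 kDa of buffer conditioned by these cells, given under the skin at 1.5 mg/kg for 7 days and named CB-100 in the labels. The sham group held 3 libraries from NOD/ShiLtJ mice that received KRBH buffer. The labels of all libraries carry the same protocol text, which states the 7 days for the brown adipocyte product. NOD mice develop autoimmune diabetes, and the mice had blood glucose between 190 and 230 mg/dL. Tissue was taken 2 to 8 weeks after injection, and the labels do not give the week, sex or age for any library. Libraries are numbered 1 to 4 in the imBAT group and 1 to 3 in the sham group, and values are listed in that order. Total counts per library were 43360208 to 63650016 in the imBAT group and 41025786 to 44983250 in the sham group.

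MMPs are zinc endopeptidases that are secreted as inactive proforms or held at the cell membrane, and between them they cleave collagens, proteoglycans, basement membrane proteins and many non-matrix proteins. ADAMTS enzymes are secreted metalloproteinases with thrombospondin repeats that trim procollagens and cleave proteoglycans, COMP or von Willebrand factor, and ADAMTS-like proteins have the same accessory domains but no protease domain. TIMPs block the active site of MMPs, and Timp3 also blocks ADAMTS enzymes. In mice the membrane-anchored collagenase Mmp14 is known to be needed for white adipocytes to enlarge within their collagen network.

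The libraries also differed in the markers of several cell types. All 10 white adipocyte markers were higher in imBAT libraries (adjusted p under 0.05 over all genes, edgeR quasi-likelihood test, the rule for every call here). Their summed level, in counts per 1000000 scaled between libraries (CPM), was 11486 to 28653 CPM in imBAT libraries, against 2146 to 4575 CPM in sham libraries. Of the 8 fibroblast and adipose progenitor markers 7 were higher, with sums of 941 to 1806 CPM in imBAT libraries, against 381 to 455 CPM in sham libraries. All 10 T cell markers were lower, with sums of 177 to 559 CPM in imBAT libraries, against 1118 to 1446 CPM in sham libraries, and all 8 B cell markers were lower, with sums of 246 to 661 CPM in imBAT libraries, against 1546 to 1856 CPM in sham libraries. Markers of lymph node stroma and venules were lower for 5 of 6 tested, with sums of 205 to 497 CPM in imBAT libraries, against 759 to 1162 CPM in sham libraries. Of 10 macrophage markers 7 were higher and 0 lower, and 4 overlapped between groups. The macrophage sums also overlapped, at 872 to 2386 CPM in imBAT libraries, against 1123 to 1251 CPM in sham libraries, with imBAT library 2 below every sham library. Over all genes tested, 24.3% were called higher and 19.3% lower. Mammary epithelium markers were higher for 7 of 8 tested, with sums of 662 to 1314 CPM in imBAT libraries, against 99.2 to 358 CPM in sham libraries. Smooth muscle and pericyte markers were higher for 6 of 8 and lower for 1, with sums of 953 to 1530.1 CPM in imBAT libraries, against 544 to 745 CPM in sham libraries. Mast cell markers were higher for 5 of 6 tested, with sums of 186 to 233 CPM in imBAT libraries, against 65.0 to 105 CPM in sham libraries, and blood endothelium markers were higher for 5 of 6 and lower for 1, with sums of 659 to 832 CPM in imBAT libraries, against 588 to 618 CPM in sham libraries. None of the markers in these 10 lists was at 0 throughout either group. These shifts ran in parallel with the changes described here, and their part in them was not tested. In whole tissue, fewer cells of a type and less RNA per cell cannot be told apart.

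**Figure D1:**
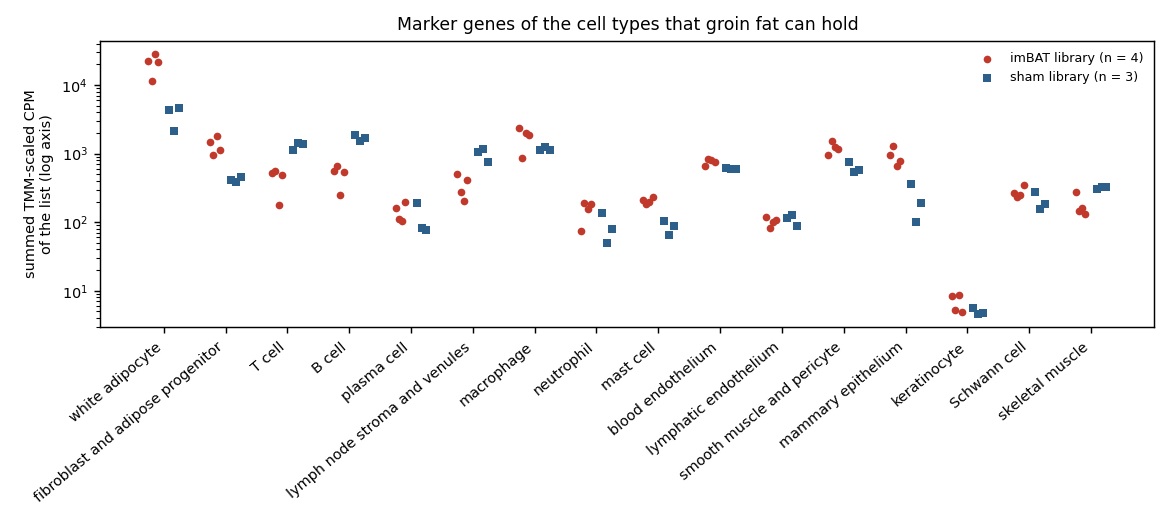
Summed level of each cell type marker list (vertical axis, CPM, log scale) in each library, with imBAT libraries as red circles and sham libraries as blue squares. The white adipocyte sums lie higher in every imBAT library than in any sham library, and the T cell and B cell sums lie lower in every imBAT library.

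In the family as a whole, rises in the imBAT group outnumbered falls. Of the 44 members with enough counts to be tested, 26 were higher in imBAT libraries at an adjusted p under 0.05 (59.1%), against 24.3% of all 26393 genes tested. Another 4 members were lower (9.09%), against 19.3% of all genes tested, and 14 did not pass the test. Calls in either direction were made for 43.5% of all genes. The median log2 fold change was 1.30 over the 44 tested members and -0.01 over all genes tested. Every TIMP, both gelatinases and 11 of 19 ADAMTS enzymes were among the members that rose, while Adamts6, Adamts10, Adamts13 and Mmp25 fell. In 26 members each imBAT library lay above each sham library, a pattern seen in 26.8% of all genes tested, and in 4 each lay below, a pattern seen in 25.2%. The 6 untested members were all MMPs, and the counts over tested members leave them out. Both counts of 26 include Adamts16, which was tested only because of its counts in the imBAT group.

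**Figure D2:**
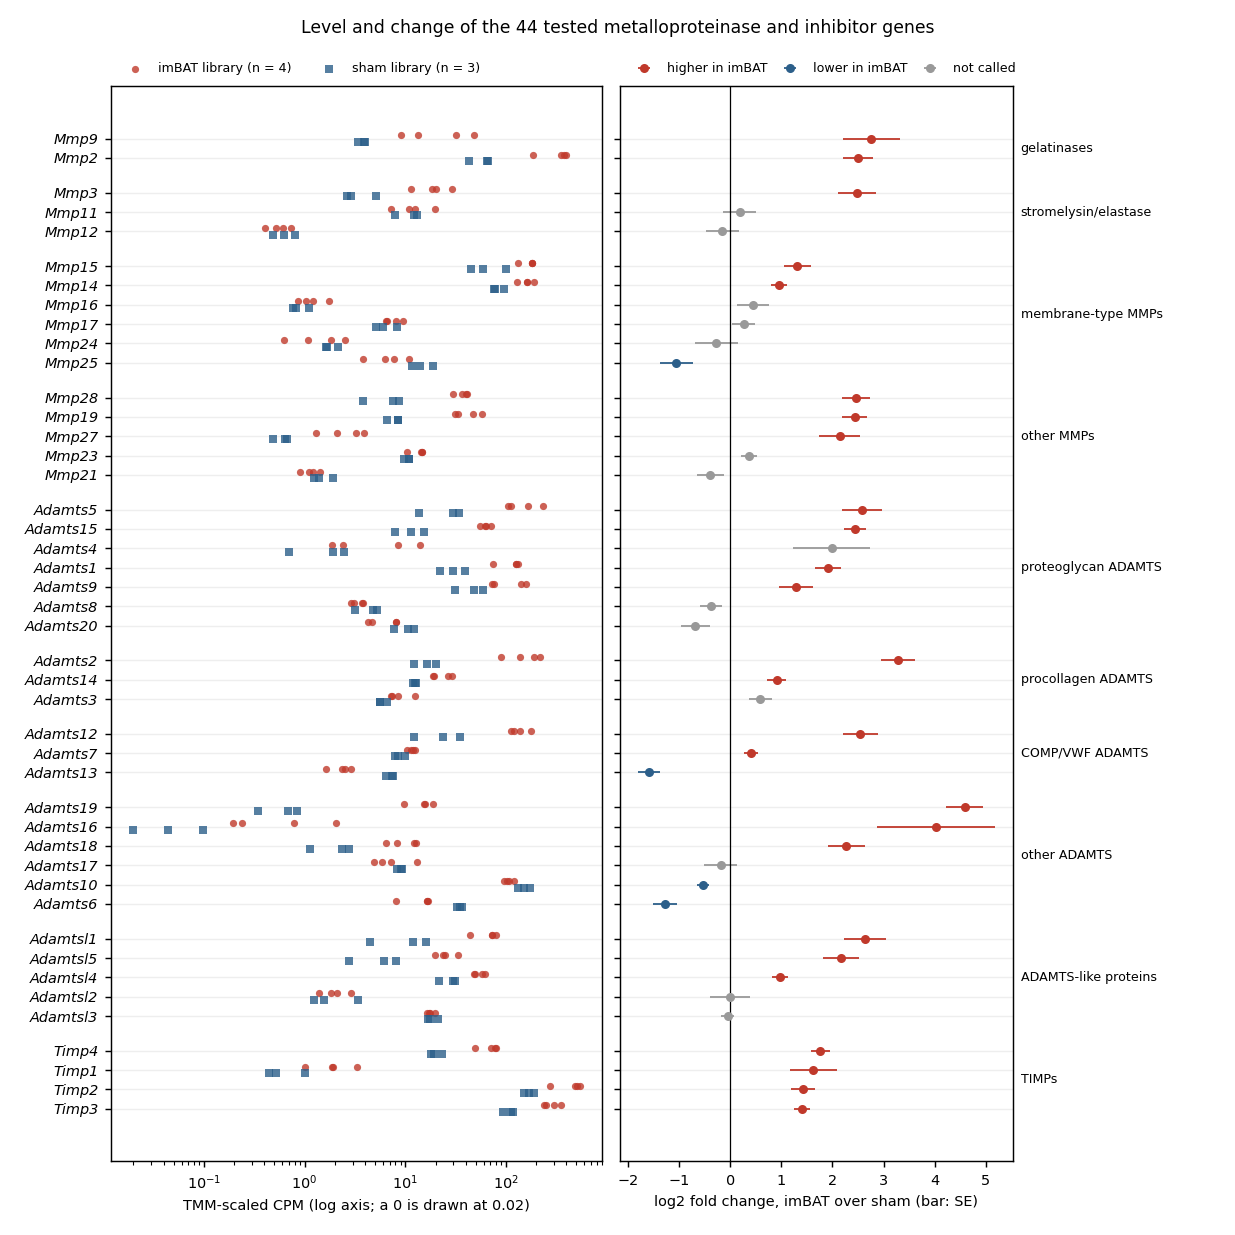
Left, level (CPM, log axis) of each of the 44 tested members in every library, grouped by role, with imBAT libraries as red circles, sham libraries as blue squares and a value of 0 drawn at the left edge. Right, log2 fold change of imBAT over sham with its standard error, red or blue where the adjusted p was under 0.05 and grey where it was not, running from 4.59 in Adamts19 to -1.60 in Adamts13.

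The gelatinases Mmp2 and Mmp9, which cleave denatured collagen and basement membrane collagen, both rose. Mmp2 (chr8:92827291-92853420), given with its GRCm38 position as for other members below, was measured at 375, 187, 399.8 and 355 CPM in the imBAT libraries, against 66.8, 42.6 and 64.5 CPM in the sham libraries. Library 2 was the lowest of the imBAT group and still lay above the highest sham value, so the groups did not overlap. The log2 fold change was 2.50 ± 0.29 (SE, as for all log2 fold changes here; adjusted p = 0.00104). Mmp9, the gelatinase of neutrophils and macrophages, had 32.1, 9.14, 47.8 and 13.5 CPM in the imBAT libraries, against 3.93, 3.39 and 4.02 CPM in the sham libraries. The sham libraries were close to each other, whereas the imBAT libraries differed widely, with libraries 1 and 3 high and libraries 2 and 4 nearer to sham. Its log2 fold change was 2.76 ± 0.56 (adjusted p = 0.00566).

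Among the 6 membrane-type MMPs, 2 rose (33.3%, against 24.3% of all genes tested) and 1 fell (16.7%, against 19.3%), shares near those of all genes. Mmp14 (chr14:54431612-54445364), the pericellular collagenase that also activates pro-Mmp2 in a complex with Timp2, had 160.3, 129, 190.3 and 161 CPM in the imBAT libraries, against 95.3, 75.4 and 77.7 CPM in the sham libraries. All imBAT libraries lay above all sham libraries, with a log2 fold change of 0.95 ± 0.15 (adjusted p = 0.00226). Mmp15, a close relative of Mmp14, had 180.4, 182, 133 and 182 CPM in the imBAT libraries, against 101, 44.7 and 59.1 CPM in the sham libraries. Libraries 1, 2 and 4 of the imBAT group were almost equal and library 3 was lower, yet above every sham library (log2 fold change 1.32 ± 0.27, adjusted p = 0.00559). Mmp25, a GPI-anchored enzyme known from leukocytes, had 6.27, 7.65, 3.79 and 11.0 CPM in the imBAT libraries, against 11.6, 19.0 and 14.0 CPM in the sham libraries. The highest imBAT library came close to the lowest sham library, and the fall of -1.05 ± 0.33 on the log2 scale (adjusted p = 0.0309) did not pass the threshold without imBAT library 1 (adjusted p = 0.0737), imBAT library 2 (0.0551), sham library 2 (0.118) or sham library 3 (0.074). Mmp16, Mmp17 and Mmp24 gave log2 fold changes of 0.45, 0.26 and -0.27 and did not pass. Mmp24 shares 13.6% of its exon bases with BC029722 on the other strand, which was more abundant and rose by 0.92 on the log2 scale (adjusted p = 0.00668).

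Of the 5 other MMPs tested, 3 rose (60%, against 24.3% of all genes tested) and none fell (19.3% of all genes). Mmp28 (epilysin), an enzyme of epithelia and macrophages, had 41.1, 29.9, 40.5 and 36.3 CPM in the imBAT libraries, against 7.51, 3.82 and 8.75 CPM in the sham libraries, with a log2 fold change of 2.46 ± 0.28 (adjusted p = 0.00101). Mmp19, a broadly expressed enzyme that cleaves basement membrane proteins, had 46.9, 31.4, 58.5 and 33.6 CPM in the imBAT libraries, against 8.47, 6.61 and 8.56 CPM in the sham libraries, with a log2 fold change of 2.44 ± 0.24 (adjusted p = 0.000816). In both genes the imBAT and sham libraries did not overlap. Each shares exon bases with a gene on the other strand, 12.0% with 1700020L24Rik for Mmp28 and 22.3% with Tmem198b for Mmp19, and both partners rose, 1700020L24Rik by 1.95 (adjusted p = 0.00163) and Tmem198b by 0.42 (adjusted p = 0.0364) on the log2 scale. The strand setting of the counting is not given in the sources used here. Most mammary epithelium and macrophage markers rose beside Mmp28, as did those of other cell types, and their part in its change was not tested. The mammary epithelium sum was highest in imBAT library 2, where Mmp28 was the lowest of its group. In the sham group both were lowest in library 2. Mmp27, an enzyme of little known function, was less abundant and rose, with 2.64 ± 1.15 CPM in imBAT libraries (SD, n = 4) and 0.595 ± 0.0987 CPM in sham libraries (n = 3) and a log2 fold change of 2.14 ± 0.41 (adjusted p = 0.00431). Mmp21 and Mmp23 gave -0.39 and 0.36 and did not pass, although Mmp23 passed without imBAT library 2 (adjusted p = 0.0202). The group of stromelysins, matrilysin and metalloelastase had 3 tested members, of which only Mmp3 rose (33.3%, against 24.3% of all genes tested). Mmp11 (stromelysin-3), an enzyme of stromal fibroblasts, had 10.8, 7.26, 12.6 and 19.7 CPM in the imBAT libraries, against 12.2, 7.87 and 13.1 CPM in the sham libraries. These ranges overlap, and the log2 fold change of 0.18 ± 0.33 did not pass (adjusted p = 0.671).

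A cluster of MMP genes on chromosome 9 (GRCm38, chr9:7272514-7699585) held 9 members over 427.1 kb and contained each of the 6 members that were too low to test. They share an origin by gene duplication, and promoters of several of them are known to respond to the stress- and cytokine-activated factor AP-1. For this reason the promoters of 5 cluster members are shown, taken from RefSeq (GRCm38.p6) as the 250 bases before and 50 bases after the annotated start. Capitals mark matches to TGANTCA, which allows any middle base in an AP-1 site (TGAGTCA or TGACTCA), and to TATAAA, the letters of a TATA box. Both motifs were searched on both strands, TGANTCA is its own reverse complement, and the matches did not overlap each other. The windows are chr9:7445572-7445871 for Mmp3, chr9:7571146-7571445 for Mmp27, chr9:7502092-7502391 for Mmp10, chr9:7272264-7272563 for Mmp13 and chr9:7691840-7692139 for Mmp7 (which has another in the table), all on the plus strand.
Mmp3: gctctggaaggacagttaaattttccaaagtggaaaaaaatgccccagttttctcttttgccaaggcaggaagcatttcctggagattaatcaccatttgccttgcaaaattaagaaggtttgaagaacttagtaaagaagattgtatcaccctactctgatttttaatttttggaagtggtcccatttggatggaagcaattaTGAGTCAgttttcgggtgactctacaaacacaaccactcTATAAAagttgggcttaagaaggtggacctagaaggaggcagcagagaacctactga
Mmp27: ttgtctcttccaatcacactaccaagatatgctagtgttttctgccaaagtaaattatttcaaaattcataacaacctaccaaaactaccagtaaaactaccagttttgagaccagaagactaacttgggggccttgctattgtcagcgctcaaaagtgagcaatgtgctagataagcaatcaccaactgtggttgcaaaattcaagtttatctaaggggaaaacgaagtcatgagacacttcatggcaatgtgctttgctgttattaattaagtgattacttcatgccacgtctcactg
Mmp10: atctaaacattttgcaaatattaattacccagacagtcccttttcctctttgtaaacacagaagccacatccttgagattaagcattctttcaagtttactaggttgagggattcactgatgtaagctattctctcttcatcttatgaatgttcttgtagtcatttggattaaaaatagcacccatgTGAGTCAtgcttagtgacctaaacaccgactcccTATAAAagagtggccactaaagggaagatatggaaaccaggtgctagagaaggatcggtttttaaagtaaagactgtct
Mmp13: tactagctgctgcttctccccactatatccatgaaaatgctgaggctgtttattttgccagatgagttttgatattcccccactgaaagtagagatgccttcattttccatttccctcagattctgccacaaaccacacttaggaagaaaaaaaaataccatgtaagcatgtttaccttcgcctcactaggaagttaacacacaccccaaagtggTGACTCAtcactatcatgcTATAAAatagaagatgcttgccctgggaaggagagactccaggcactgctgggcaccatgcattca
Mmp7: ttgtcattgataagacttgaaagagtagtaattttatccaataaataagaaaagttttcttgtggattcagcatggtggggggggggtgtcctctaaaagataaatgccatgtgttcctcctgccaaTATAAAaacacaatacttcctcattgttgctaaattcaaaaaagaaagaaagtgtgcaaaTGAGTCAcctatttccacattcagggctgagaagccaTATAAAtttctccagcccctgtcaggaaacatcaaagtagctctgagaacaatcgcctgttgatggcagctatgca
The TGANTCA match began 46 bases before the start in Mmp3, 63 bases before it in Mmp10 and Mmp7, and 35 bases before it in Mmp13, and Mmp27 held neither motif. TGANTCA was present in a promoter of 7 of the 9 cluster members and in 0 of the 26 other members with a promoter in the table. No promoter was available for 15 members outside the cluster, among them Mmp2 and Mmp9. Other forms of an AP-1 site were not searched. In Mmp20, which is among these 7, the match read TGAATCA and so lacked the middle base of an AP-1 site. Over all 32851 promoters of this length the share was 7.81%. TATAAA was present in 8 of the 9 cluster members, in 3 of the 26 others and in 13.6% of all promoters. In Mmp8 the TATAAA match lay on the opposite strand and began 3 bases before the start. In Mmp12 it began at base 5 after the start. Members were counted here by gene, and the shares of all promoters by promoter. Of the 38 member promoters, 18.4% held TGANTCA and 28.9% held TATAAA. A match is a run of letters and was not tested as a binding site.

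Within this cluster, expression did not move as a block. Mmp3 (stromelysin-1), which cleaves proteoglycans and laminin and activates other pro-MMPs, had 18.4, 11.4, 28.9 and 20.3 CPM in the imBAT libraries, against 5.11, 2.63 and 2.87 CPM in the sham libraries. Its groups did not overlap, with a log2 fold change of 2.48 ± 0.36 (adjusted p = 0.00193). Mmp27 rose by 2.14 on the log2 scale. Mmp12, the macrophage metalloelastase, had 0.737, 0.523, 0.615 and 0.407 CPM in the imBAT libraries, against 0.486, 0.623 and 0.796 CPM in the sham libraries, and did not pass (log2 fold change -0.15 ± 0.33, adjusted p = 0.732). Mmp7 (matrilysin), an epithelial enzyme, had 0, 3, 0 and 3 counts in the imBAT libraries, against 13, 9 and 11 counts in the sham libraries. The collagenase Mmp13 had 5, 6, 0 and 4 counts in the imBAT libraries, against 7, 12 and 8 in the sham libraries. In both genes the imBAT libraries lay below the sham libraries, but neither passed with all genes kept in the fit (adjusted p = 0.059 for Mmp7 and 0.329 for Mmp13). Mmp10 (stromelysin-2) had 8, 3, 12 and 15 counts in the imBAT libraries, against 3, 8 and 2 in the sham libraries. Mmp8, the collagenase of neutrophil granules, had 10, 1, 8 and 63 counts in the imBAT libraries, against 8, 11 and 3 in the sham libraries. Mmp20 (enamelysin) had at most 3 counts in any library, and Mmp1b had 0 in all 7, which allows up to 0.0491 to 0.0738 CPM per library (3 counts, counting error only). Mmp10, Mmp8 and Mmp20 gave adjusted p-values of 0.343 to 0.451 with all genes kept.

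**Figure D3:**
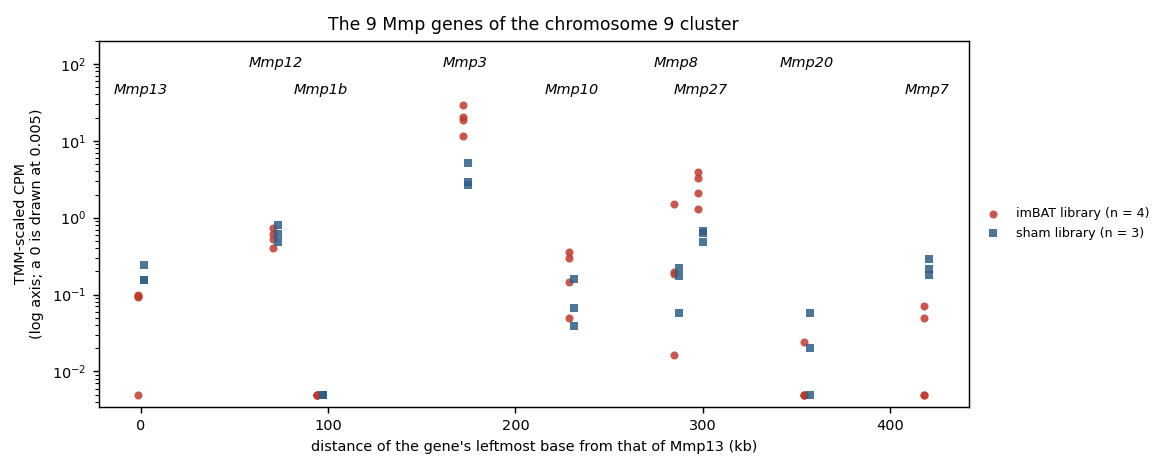
CPM (log axis) of the 9 cluster members in each library against the distance of each gene from Mmp13 in kb, with imBAT libraries as red circles, sham libraries as blue squares and a value of 0 drawn at the bottom. Mmp3 and Mmp27 are the members whose imBAT libraries all lie above the sham libraries, and those of Mmp7 and Mmp13 all lie below them.

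Of the 7 proteoglycan-cleaving ADAMTS enzymes, 4 rose (57.1%, against 24.3% of all genes tested) and none fell (19.3% of all genes). Adamts1, an early response enzyme that cleaves versican and aggrecan, had 74.1, 126, 133 and 126 CPM in the imBAT libraries, against 39.6, 29.7 and 22.1 CPM in the sham libraries, with library 1 well below the other imBAT libraries and still above sham (log2 fold change 1.91 ± 0.26, adjusted p = 0.00152). Adamts5, the main aggrecanase of mouse cartilage, had 168, 112, 236 and 106 CPM in the imBAT libraries, against 34.4, 13.6 and 30.0 CPM in the sham libraries. Libraries 1 and 3 were high in the imBAT group, and library 2 was low in the sham group (log2 fold change 2.58 ± 0.40, adjusted p = 0.00224). These genes lie 53.1 kb apart on chromosome 16. Adamts15, another versican-cleaving enzyme, averaged 62.9 ± 6.65 CPM in imBAT libraries (SD, n = 4) and 11.5 ± 3.64 CPM in sham libraries (n = 3), with a log2 fold change of 2.45 ± 0.22 (adjusted p = 0.000768). Its neighbour Adamts8, 20.1 kb away and transcribed in the other direction, gave -0.38 ± 0.22 and did not pass (adjusted p = 0.201). Adamts9, a large versican-cleaving enzyme, had 72.8, 142, 157 and 76.8 CPM in the imBAT libraries, against 58.8, 47.9 and 31.4 CPM in the sham libraries. Libraries 2 and 3 of the imBAT group were high and libraries 1 and 4 lay nearer to sham. Its log2 fold change of 1.28 ± 0.33 (adjusted p = 0.0146) did not pass without imBAT library 3 (adjusted p = 0.0507) or sham library 3 (0.0538). Adamts4, an aggrecanase induced by cytokines, had 1.86, 8.46, 14.1 and 2.40 CPM in the imBAT libraries, against 2.45, 0.703 and 1.92 CPM in the sham libraries. Libraries 2 and 3 were high while libraries 1 and 4 lay within the sham range, and the log2 fold change of 1.98 ± 0.76 did not pass (adjusted p = 0.0635). Without imBAT library 1 the adjusted p was 0.0343, and without imBAT library 4 it was 0.042. Adamts20, a relative of Adamts9, gave -0.69 ± 0.28 and did not pass (adjusted p = 0.0769), although it passed as lower with DESeq2 (0.0444) and under upper-quartile scaling (0.0285).

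The procollagen N-proteinases included the second largest rise among members with at least 1 CPM on average. Adamts2 (chr11:50602084-50807573), which removes the aminopropeptide of fibrillar procollagens, had 219, 137, 192 and 89.8 CPM in the imBAT libraries, against 20.4, 12.3 and 16.5 CPM in the sham libraries. The lowest imBAT value was several times the highest sham value (log2 fold change 3.29 ± 0.34, adjusted p = 0.000867). Adamts14, which can act on the same propeptide, had 19.2, 29.0, 26.8 and 18.7 CPM in the imBAT libraries, against 12.0, 12.5 and 12.9 CPM in the sham libraries. Sham libraries were nearly equal and all imBAT libraries were higher, with a smaller log2 fold change of 0.91 ± 0.18 (adjusted p = 0.00511). Adamts3, known in mice for activating the lymphatic growth factor Vegfc, gave 0.59 ± 0.23 and did not pass (adjusted p = 0.0627), although its groups did not overlap.

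Adamts12 and Adamts7 are related enzymes known to cleave cartilage oligomeric matrix protein. Adamts12 had 138, 122, 179 and 112 CPM in the imBAT libraries, against 35.2, 12.4 and 23.5 CPM in the sham libraries, a log2 fold change of 2.54 ± 0.34 (adjusted p = 0.00152). Adamts7 had 12.0, 12.5, 10.5 and 11.5 CPM in the imBAT libraries, against 8.49, 7.97 and 9.96 CPM in the sham libraries. Its groups did not overlap, but the log2 fold change of 0.40 ± 0.14 was just past the threshold (adjusted p = 0.0489) and was lost in 11 of 14 alternative settings, with adjusted p-values up to 0.385. It was lost on leaving out any single library. Adamts13 (chr2:26973416-27009628), the protease that trims von Willebrand factor, had the largest fall among tested members, with 2.89, 2.55, 1.65 and 2.35 CPM in the imBAT libraries, against 6.50, 7.63 and 7.34 CPM in the sham libraries. Every imBAT library lay far below every sham library (log2 fold change -1.60 ± 0.22, adjusted p = 0.00147). Its transcript is known mainly from liver stellate cells and endothelium.

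Adamts6 and Adamts10 form a related pair known for acting on fibrillin microfibrils, and both fell. Adamts6 had 16.3, 16.7, 8.02 and 16.4 CPM in the imBAT libraries, against 32.8, 34.9 and 36.8 CPM in the sham libraries. Library 3 of the imBAT group was the lowest and the other imBAT libraries were close to each other (log2 fold change -1.28 ± 0.24, adjusted p = 0.00404). Adamts10 had 102, 119.9, 95.8 and 107 CPM in the imBAT libraries, against 153, 133 and 174 CPM in the sham libraries. The groups did not overlap, and the log2 fold change was -0.53 ± 0.12 (adjusted p = 0.0091). In the related pair Adamts17 and Adamts19 the values went apart. Adamts19, known in mice for its role in heart valves, rose more than any other tested member, with 18.8, 15.9, 15.3 and 9.66 CPM in the imBAT libraries, against 0.840, 0.341 and 0.679 CPM in the sham libraries, and a log2 fold change of 4.59 ± 0.37 (adjusted p = 0.000767). Adamts17 gave -0.19 ± 0.32 and did not pass (adjusted p = 0.652). It was highest in imBAT library 2, at 13.2 CPM, and without that library its log2 fold change was -0.57, past the threshold as lower (adjusted p = 0.0489). Adamts18 rose with 10.00 ± 3.08 CPM in imBAT libraries (SD, n = 4) and 2.07 ± 0.843 CPM in sham libraries (n = 3) and a log2 fold change of 2.27 ± 0.37 (adjusted p = 0.00258). Its relative Adamts16 had 0.793, 0.196, 2.07 and 0.240 CPM in the imBAT libraries, against 0.0442, 0 and 0.0971 CPM in the sham libraries. The sham values rest on 2, 0 and 5 counts, against 43, 12, 84 and 10 counts in the imBAT libraries, so the gene was tested only because of the imBAT group. It was called higher (adjusted p = 0.022), but its fitted log2 fold change of 4.03 ± 1.15 is not a firm size. The call was lost without sham library 1 (adjusted p = 0.0621) or sham library 2 (0.0678), and the gene was not tested without imBAT library 1, 3 or 4 or with a filter of 1 CPM in 3 libraries.

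Of the ADAMTS-like proteins, which bind matrix without cleaving it, 3 of 5 rose (60%, against 24.3% of all genes tested) and none fell (19.3% of all genes). Adamtsl1 had 80.0, 43.7, 73.0 and 72.3 CPM in the imBAT libraries, against 16.1, 4.50 and 12.0 CPM in the sham libraries, with sham library 2 low and no overlap between groups (log2 fold change 2.63 ± 0.41, adjusted p = 0.00237). Adamtsl4, a fibrillin-binding protein needed for anchoring the eye lens, had 58.2, 49.0, 61.7 and 48.4 CPM in the imBAT libraries, against 21.6, 30.2 and 31.5 CPM in the sham libraries, and a smaller change of 0.97 ± 0.16 (adjusted p = 0.00257). Adamtsl5 averaged 25.5 ± 5.55 CPM in imBAT libraries (SD, n = 4) and 5.69 ± 2.72 CPM in sham libraries (n = 3), with a log2 fold change of 2.16 ± 0.35 (adjusted p = 0.00257). Adamtsl2 and Adamtsl3 gave -0.0031 and -0.050 and did not pass, and their sign changed with the setting.

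All 4 inhibitors rose along with the enzymes (100%, against 24.3% of all genes tested). Timp2 (chr11:118301069-118355740), which inhibits MMPs and also docks pro-Mmp2 on Mmp14, had 511, 272, 543 and 489.8 CPM in the imBAT libraries, against 169, 150.0 and 191 CPM in the sham libraries. Library 2 of the imBAT group was low, as it was for Mmp2, and still above every sham library (log2 fold change 1.42 ± 0.23, adjusted p = 0.00277). Timp3, the matrix-bound inhibitor that also blocks ADAMTS and ADAM enzymes, had 239.8, 303, 248 and 352 CPM in the imBAT libraries, against 116, 113 and 94.3 CPM in the sham libraries. The groups lay far apart, with a log2 fold change of 1.40 ± 0.16 (adjusted p = 0.00101). Timp4, known to be abundant in adipose tissue and heart, had 48.8, 79.4, 77.3 and 71.0 CPM in the imBAT libraries, against 23.5, 19.5 and 18.1 CPM in the sham libraries, again without overlap (log2 fold change 1.76 ± 0.19, adjusted p = 0.000867). Timp1, the inhibitor induced in inflammation and fibrosis, was scarce, with 3.30, 1.88, 1.92 and 1.01 CPM in the imBAT libraries, against 1.02, 0.442 and 0.524 CPM in the sham libraries. Library 4 lay at the level of the highest sham library, so the groups overlapped, and the log2 fold change of 1.62 ± 0.46 (adjusted p = 0.0206) did not pass without sham library 2 (adjusted p = 0.0794) or sham library 3 (0.0784). Timp1, Timp3 and Timp4 each lie inside a synapsin gene on the opposite strand. Timp3 shares 21.3% of its exon bases with Syn3, which had a log2 fold change of 0.51 and did not pass, and Timp4 shares 1.53% with Syn2, which rose by 2.30 (adjusted p = 0.00205). Timp1 shares none with Syn1.

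Levels were compared between genes as CPM per kb of exon. Timp2 ranked first in both groups, at 117 CPM per kb in imBAT libraries and 43.7 CPM per kb in sham libraries. Mmp2 followed it in the imBAT group, at 97.6 CPM per kb in imBAT libraries and 17.2 CPM per kb in sham libraries. Adamts10, one of the members that fell, ranked 10 in imBAT libraries and 2 in sham libraries, at 12.9 CPM per kb in imBAT libraries and 18.6 CPM per kb in sham libraries. Summed over the genes of a family, MMPs reached 211 ± 43.5 in imBAT libraries (SD, n = 4) and 64.8 ± 11.9 in sham libraries (n = 3), and TIMPs reached 166 ± 29.2 in imBAT libraries (SD, n = 4) and 61.1 ± 4.32 in sham libraries (n = 3). ADAMTS enzymes reached 108 ± 15.9 in imBAT libraries (SD, n = 4) and 49.5 ± 5.24 in sham libraries (n = 3). The sums and ratios over several members are given as descriptions, without a test.

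**Figure D4:**
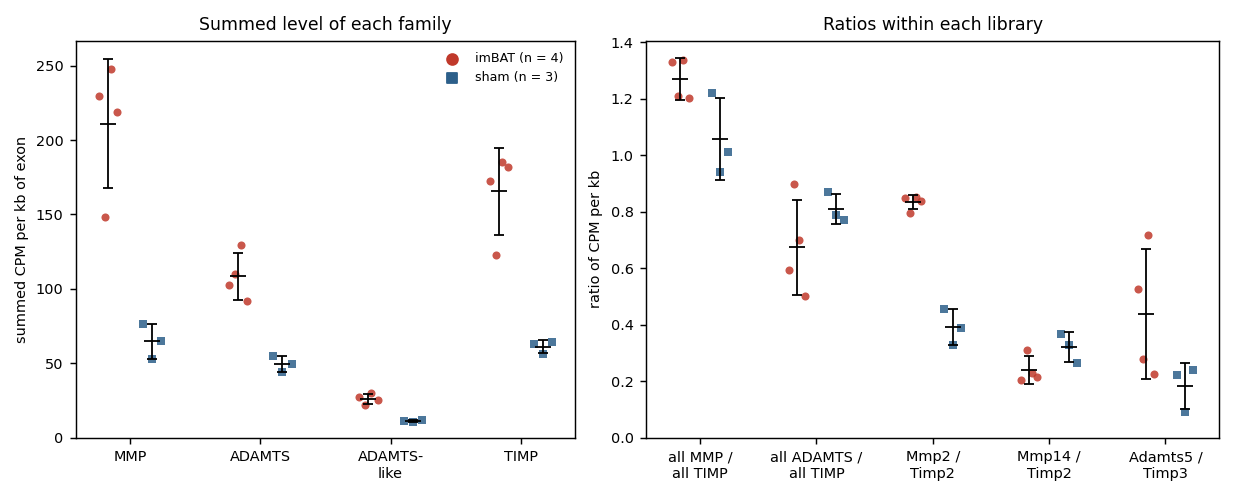
Summed level of each family (left, CPM per kb) and ratios of levels (right) in each library, with imBAT libraries as red circles, sham libraries as blue squares, and bars for the mean ± SD of each group (n = 4 and n = 3). The Mmp2 to Timp2 ratio separates the groups, whereas the ratio of summed MMPs to summed TIMPs overlaps.

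The balance of enzymes and inhibitors moved less than either sum. The ratio of summed MMPs to summed TIMPs was 1.33, 1.21, 1.34 and 1.20 in the imBAT libraries, against 1.22, 0.94 and 1.01 in the sham libraries. Sham library 1 lay between the imBAT libraries, so the groups overlapped. The ratio of summed ADAMTS enzymes to summed TIMPs was 0.60, 0.90, 0.70 and 0.50 in the imBAT libraries, against 0.87, 0.79 and 0.77 in the sham libraries, again overlapping, with the lowest value in an imBAT library. Timp3, which also blocks ADAMTS enzymes, supplied 21.9 ± 6.55 percent of the TIMP sum in imBAT libraries (SD, n = 4) and 21.8 ± 3.44 in sham libraries (n = 3). This ratio therefore mostly sets ADAMTS enzymes beside other TIMPs. Single pairs were less alike. Mmp2 over Timp2 was 0.85, 0.80, 0.85 and 0.84 in the imBAT libraries, against 0.46, 0.33 and 0.39 in the sham libraries. The imBAT libraries were almost equal to each other and all lay above the sham libraries. Mmp14 over Timp2 was 0.20, 0.31, 0.23 and 0.21 in the imBAT libraries, against 0.37, 0.33 and 0.27 in the sham libraries, with overlap and with the lower values in imBAT libraries. Mmp9 over Timp1 was 2.44, 1.22, 6.25 and 3.36 in the imBAT libraries, against 0.97, 1.93 and 1.92 in the sham libraries, and Adamts5 over Timp3 was 0.53, 0.28, 0.72 and 0.23 in the imBAT libraries, against 0.22, 0.09 and 0.24 in the sham libraries, both with overlap.

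The makeup of each enzyme family shifted as well. Mmp2 supplied 45.5 ± 5.31 percent of the summed MMP level in imBAT libraries (SD, n = 4) and 26.4 ± 2.80 in sham libraries (n = 3). Mmp14 supplied a smaller share in imBAT libraries, at 12.9 ± 1.24 percent in imBAT libraries (SD, n = 4) and 21.6 ± 2.04 in sham libraries (n = 3). Among ADAMTS enzymes, the share of Adamts10 was 12.1 ± 2.26 percent in imBAT libraries (SD, n = 4) and 37.6 ± 4.44 in sham libraries (n = 3). The share of Adamts2 was 15.7 ± 5.30 percent in imBAT libraries (SD, n = 4) and 3.51 ± 0.509 in sham libraries (n = 3), and that of Adamts6 was 1.77 ± 0.666 percent in imBAT libraries (SD, n = 4) and 9.11 ± 1.27 in sham libraries (n = 3). These 5 shares did not overlap between groups, nor did those of Adamts5 and Adamts12. The share of Mmp15 overlapped, at 9.96 to 22.8 percent in imBAT libraries and 15.7 to 24.4 in sham libraries. That of Adamts1 also overlapped, at 13.6 to 26.0 percent in imBAT libraries and 8.41 to 13.7 in sham libraries. In CPM of single genes, 26.8% of all genes tested had each imBAT library above each sham library, and 25.2% had each below. Within the TIMPs the share of Timp2 was 69.3 ± 8.84 percent in imBAT libraries (SD, n = 4) and 71.3 ± 4.33 in sham libraries (n = 3), which overlapped.

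**Figure D5:**
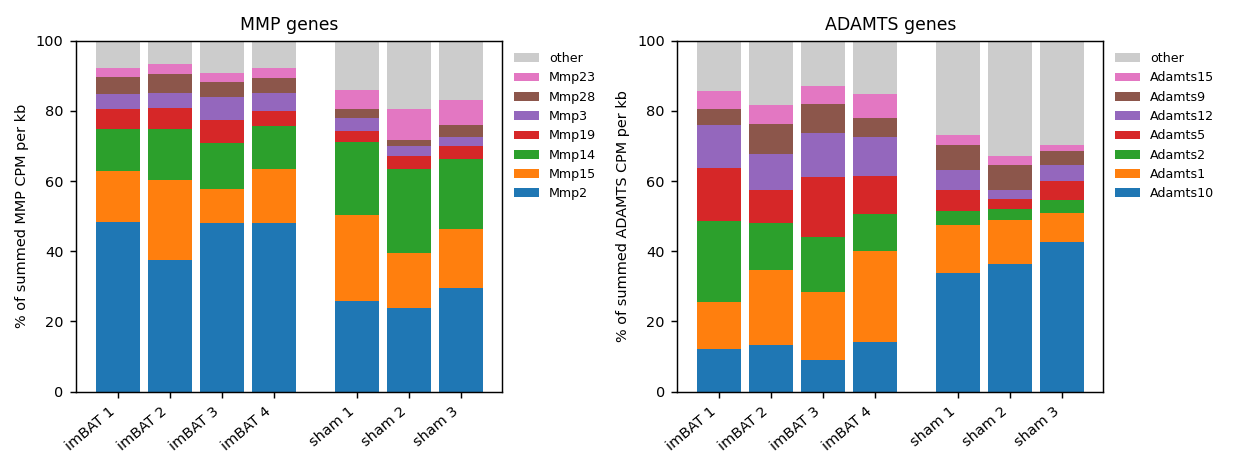
Share (percent) of the summed CPM per kb of the MMPs (left) and the ADAMTS enzymes (right) taken by their main members in each library, with the 4 imBAT libraries first and the 3 sham libraries after them. In the imBAT libraries Mmp2 takes a larger part of the MMP bar and Adamts10 a smaller part of the ADAMTS bar.

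Individual libraries carried the pattern unevenly. Among the 26 members that rose, imBAT library 3 was the highest of its group in 15 and imBAT library 2 the lowest in 11. All 4 members that fell were lowest in imBAT library 3. That library also had the highest white adipocyte sum (28653 CPM) and the lowest T cell sum (177 CPM, where imBAT libraries 1, 2 and 4 had 492 to 559 CPM). In the sham group, library 2 was the lowest in 19 of the 26 members that rose, and it had the lowest white adipocyte sum (2146 CPM). The part of these marker differences in the enzyme values was not tested. How often each library was the highest or lowest over all genes tested was not counted, so these counts are not shown to be particular to the members.

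Genes that activate, clear or otherwise control these enzymes moved mostly upward. Of 15 tested, 14 rose (93.3%, against 24.3% of all genes tested) and 1 fell (6.67%, against 19.3%), with a median log2 fold change of 1.52 against -0.01 over all genes. Pcsk6, a proprotein convertase of the furin type, averaged 100.3 ± 34.8 CPM in imBAT libraries (SD, n = 4) and 12.1 ± 4.57 CPM in sham libraries (n = 3), with a log2 fold change of 3.05 ± 0.35 (adjusted p = 0.00104). Lrp1, the endocytic receptor that clears several MMPs and ADAMTS enzymes together with TIMPs, averaged 2750.2 ± 625 CPM in imBAT libraries (SD, n = 4) and 735 ± 164 CPM in sham libraries (n = 3) (log2 fold change 1.90 ± 0.23, adjusted p = 0.00108). Thbs1 (thrombospondin-1) and Bsg (basigin, an inducer of MMPs) rose by 1.39 ± 0.13 and 1.37 ± 0.16 on the log2 scale (adjusted p = 0.000816 and 0.00105). The exception was Plaur, the urokinase receptor, at 18.8 ± 6.23 CPM in imBAT libraries (SD, n = 4) and 44.5 ± 12.3 CPM in sham libraries (n = 3) (log2 fold change -1.24 ± 0.27, adjusted p = 0.00736).

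Matrix proteins that these enzymes process rose in 16 of 20 tested (80.0%, against 24.3% of all genes tested) and fell in none (19.3% of all genes), with a median log2 fold change of 2.41. Col1a1 and Col1a2, the chains of type I collagen, had log2 fold changes of 3.41 ± 0.35 and 2.68 ± 0.22. Nid1 (nidogen-1), a basement membrane linker, had 2.96 ± 0.30, and Col5a1, a chain of type V collagen, had 2.80 ± 0.30, with adjusted p-values of 0.000867 for Col1a1, 0.000767 for Col1a2, 0.000824 for Nid1 and 0.000902 for Col5a1. Among proteoglycan core proteins, Vcan (versican), Lum and Dcn rose by 3.22 ± 0.43, 3.88 ± 0.45 and 1.52 ± 0.21 on the log2 scale (adjusted p = 0.00145, 0.00103 and 0.00147). Bgn and Acan did not pass, and Acan was close to the floor, at 0 to 20 counts per library. The cartilage protein Comp and the fibrillin Fbn2 did not pass either. The related ADAM genes, membrane-anchored sheddases and their relatives, were mixed, with 4 of 9 tested higher (44.4%, against 24.3% of all genes), 3 lower (33.3%, against 19.3%) and a median of 0.33. Adam15 and Adam12 rose by 1.54 ± 0.16 and 1.08 ± 0.20 on the log2 scale (adjusted p = 0.000836 and 0.00385), and Adam19 and Adam8 fell, with -0.58 ± 0.08 and -0.74 ± 0.15 (adjusted p = 0.00163 and 0.00484).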

How the data were processed

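RNA from inguinal white adipose tissue was sequenced and aligned with STAR 2.7.9a to the Ensembl release 101 primary assembly, per the labels' protocols. The authors deposited raw read counts per gene for 7 libraries. The submitters' processing notes also list Salmon 1.5.2, featureCounts 2.0.3, limma, edgeR and Subread, without saying what each did. The treatment of strand and of reads with several matches is not given in the sources used here.

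Repeated rows of the same gene ID (287, identical) were dropped. Counts were scaled by TMM, filtered with filterByExpr (minimum count 10) and tested with edgeR 4.0.16 (quasi-likelihood test, robust, 5 residual degrees of freedom, Benjamini-Hochberg adjustment over 26393 genes, threshold 0.05) in R 4.3.3. TMM factors were 0.809 to 0.963 in imBAT libraries, lowest in library 3, and 1.10 to 1.17 in sham libraries. The standard error was the absolute log2 fold change divided by the square root of F. CPM are TMM-scaled counts per 1000000, and exon lengths and coordinates come from GENCODE M21 (GRCm38, the build of release 101), which held all 50 members. Of these, 35 had a promoter in the RefSeq table.

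Groups follow the treatment label, and replicate numbers follow accession order. The labels do not say that libraries came from separate mice, so p-values measure the spread between libraries, which may be technical. No 2 libraries of a group agreed within sampling noise (chi-square per degree of freedom of at least 22.5). The floor given for Mmp1b covers counting error only, whereas SE and SD values include the spread between libraries.

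Values in every library are given for all TIMPs, the 2 most expressed tested members of each role group, the 8 largest rises and up to 8 largest falls without overlap at a mean of at least 1 CPM, and 9 members chosen by name. Of each pathway list the 4 members with the smallest p are named. Adamts16, Plaur, Vcan, Lum, Dcn, the untested members and those that did not pass were named after their values were seen. The members and lists were chosen with earlier results of these data known. Alternatives tried were DESeq2 1.42.0, voom with quality weights (limma 3.58.1), RLE or upper-quartile scaling, a filter of 1 CPM in at least 3 libraries or none, a replicate block, a stricter adjusted p (0.01) and the omission of each library in turn.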

Additional observations from a re-analysis of the deposited data

Results flagged for a closer look

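In 4 of the 44 tested members, 1 imBAT library stood far from the other 3 relative to the spread of its group, above the 95% critical value of Dixon's ratio. Chance flags about 1 in 20 groups. Adamts1 was low in imBAT library 1, at 74.1 CPM where imBAT libraries 2 to 4 had 126 to 133 CPM. Adamts6 was low in imBAT library 3, at 8.02 CPM against 16.3 to 16.7 CPM. Mmp15 was also low in imBAT library 3, at 133 CPM against 180.4 to 182 CPM. Mmp23, a transmembrane MMP that did not pass the test, was low in imBAT library 2, at 10.4 CPM. Leaving out the library kept the calls of Adamts1, Adamts6 and Mmp15, and Mmp23 passed without imBAT library 2 (adjusted p = 0.0202).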

How the results depend on the processing

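Of the 30 members called, 25 (22 higher and 3 lower) kept their call in each of the 14 alternative settings that gave them a value, and none changed sign. The count of members higher was 26, and 23 to 26 without 1 library, 25 under RLE or upper-quartile scaling, 28 with DESeq2 and 22 at an adjusted p under 0.01. The count lower was 4, and 3 to 5 without 1 library, 5 with DESeq2 or upper-quartile scaling and 3 at the stricter p. Over all genes, 6407 were higher (4495 to 6447 without 1 library, 3836 at the stricter p) and 5084 lower (3024 to 5097 without 1 library, 2364 at the stricter p, 3024 without sham library 2 and 3074 without sham library 3). Upper-quartile scaling moved the median of all genes by -0.24, so that 8180 genes were lower and the higher share of calls was 36.6%, against 55.8%, and the members' median became 1.07. Adamts9 was also lost with no filter (adjusted p = 0.0612), Adamts3 passed with DESeq2 (0.036) and voom (0.0384), Adamts4 passed with DESeq2 (0.0087), and Adamts20 passed as lower with DESeq2 (0.0444) and upper-quartile scaling (0.0285). With title numbers as a replicate block 26 members were higher and 6 lower, and Adamts17 (0.0383) and Adamts20 (0.0392) passed as lower and Mmp23 (0.0414) as higher. Libraries sharing a number had deviations correlated at 0.10, 0.11 and -0.01. The highest correlation between libraries with different numbers was 0.040 (imBAT library 3 with sham library 3). Not every library correlated best with its own number. So few pairs cannot decide whether the numbers pair the samples. Signs reversed for uncalled members only, on the log2 scale. Adamtsl2 was 0.0548 with voom and -0.26 to 0.55 without 1 library, above 0 without imBAT library 1 (0.15) or sham library 2 (0.55). Adamtsl3 was 0.00606 with voom and -0.11 to 0.0565 without 1 library, above 0 without sham library 1. Mmp11 was -0.0499 under upper-quartile scaling and -0.11 to 0.38 without 1 library, below 0 without imBAT library 4 (-0.11) or sham library 2 (-0.0104). Mmp12 was -0.31 to 0.0425 without 1 library, above 0 without sham library 3. The cause was not tested.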

Other observations

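Mmp8, which was too low to test, reached 63 counts in imBAT library 4 and 1 to 11 counts in every other library. The neutrophil markers S100a8, S100a9 and Ngp had 416, 697 and 304 counts in that library. In the other libraries S100a8 had 6 to 63 counts, S100a9 had 18 to 186 and Ngp had 4 to 39. The neutrophil marker list of 10 genes had 9 tested, of which 0 rose and Cxcr2 fell, and its summed level overlapped between groups, at 74.6 to 191 CPM in imBAT libraries and 48.9 to 134 CPM in sham libraries. Most of that sum was Ltf (lactoferrin), at 63.3 to 183 CPM in imBAT libraries and 33.6 to 122 CPM in sham libraries. Without Ltf, a choice made after the values were seen, the sums were 11.4, 7.38, 14.5 and 50.6 CPM in imBAT libraries 1 to 4, against 12.7, 15.4 and 16.5 CPM in sham libraries 1 to 3. Mmp9, another neutrophil enzyme, was not highest in that library, at 13.5 CPM within a range of 9.14 to 47.8 CPM in the imBAT group.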
